A study of Mus musculus with 4 samples.

Results

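The set of 9 genes holds vimentin and 6 of the transcription factors that drive epithelial-mesenchymal transition (EMT) in textbooks. The homeobox factor Prrx1 and the mesenchymal cadherin Cdh2 complete it. The members were taken by gene symbol: Vim, Zeb1, Zeb2, Snai1, Snai2, Twist1, Twist2, Cdh2 and Prrx1, which are 9 of the 24411 genes listed in each library. They were measured by poly(A)-selected RNA-seq in the mouse mammary carcinoma line 4T1, in 2 control libraries and 2 libraries labelled CD95ko. CD95 is the death receptor encoded by Fas. Per the labels' protocols, the edited lines come from 4T1 cells that carry Cas9 from a blasticidin-selected lentivirus and received synthetic guides against exon 9 of Fas, after which single cells were grown into clones. The protocols name RNA from a control, from the Cas9 line and from 2 clones. The titles do not tell which control is which, and both have the genotype control. Each library labelled CD95ko is thus 1 clone, so a difference between clones and an effect of the edit cannot be told apart.

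EMT is the process in which epithelial cells loosen their junctions and take on a mesenchymal shape and motility. SNAIL, ZEB and TWIST proteins bind E-box DNA and repress epithelial genes such as Cdh1, which encodes E-cadherin, while vimentin, an intermediate filament protein, is the most used transcript and protein marker of the mesenchymal side. Mammary carcinoma lines often hold epithelial and mesenchymal features together, and 4T1 is known for expressing E-cadherin and for metastasis that depends on Twist1.

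Of the 9 members, 4 were detected and 5 were listed at 0 in all 4 libraries. Vim, Twist1, Snai1 and Zeb2 had values above 0 in every library. Zeb1, Snai2, Twist2, Cdh2 and Prrx1 were the members listed at 0 throughout. In both libraries labelled CD95ko, each of the 4 detected members lay below both controls, as did 18.3% of all genes tested. Vim differed most, at 640.5 ± 16.6 TPM (a transcript abundance corrected for length and library size; SD, n = 2) in the controls and 152.0 ± 83.6 TPM (SD, n = 2) in the libraries labelled CD95ko, a 4.21-fold lower mean. No member passed an adjusted p of 0.05.

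Depth is unknown from TPM values. Genes above 0 numbered 11193 to 12010 per library. The targeted gene Fas was at 49.37 and 39.21 TPM in the controls, at 15.77 TPM in the library labelled CD95ko 1 and at 49.45 TPM in the library labelled CD95ko 2. Gene-level TPM does not separate the targeted exon from the rest of the transcript, and Fas was not lower in the library labelled CD95ko 2, so directions refer to the libraries as labelled. The 6 markers of mammary epithelial carcinoma cells (Epcam, Cdh1, Krt8, Krt18, Krt7 and Krt19) were present in all 4 libraries.

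Promoters of Twist1, Snai1 and, in part, Vim are shown. Marked are any matches to an E-box of the kind that SNAIL and ZEB proteins are known to bind and to the TATA motif of core promoters. Zeb2 has 4 annotated starts and is not shown. RefSeq promoter entries (GRCm38.p6) were found for 6 of the 9 members: Vim, Zeb2, Snai1, Twist1, Twist2 and Prrx1. The 200 bases before the transcription start were searched for the E-box CAGGTG on both strands (CACCTG on the other strand) and for TATAA on the gene's strand. These motifs do not overlap each other. Among all 32851 promoter entries, 13.9% held the E-box and 13.0% held TATAA in a window of this length. Capitals mark every match in the bases shown. The Twist1 window lies at chr12:33957471-33957670, the Snai1 window at chr2:167537995-167538194 and the Epcam window at chr17:87635779-87635978, all on the forward strand. Epcam is shown as the epithelial counterpart whose level lay opposite to Vim.
Twist1: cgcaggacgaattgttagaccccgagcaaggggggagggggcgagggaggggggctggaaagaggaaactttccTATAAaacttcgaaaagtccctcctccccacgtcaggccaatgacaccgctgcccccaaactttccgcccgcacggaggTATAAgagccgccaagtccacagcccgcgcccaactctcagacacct
Snai1: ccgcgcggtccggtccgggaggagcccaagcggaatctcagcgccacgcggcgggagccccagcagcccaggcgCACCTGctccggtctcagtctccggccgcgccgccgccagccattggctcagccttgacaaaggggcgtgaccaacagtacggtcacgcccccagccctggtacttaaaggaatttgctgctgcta
Epcam: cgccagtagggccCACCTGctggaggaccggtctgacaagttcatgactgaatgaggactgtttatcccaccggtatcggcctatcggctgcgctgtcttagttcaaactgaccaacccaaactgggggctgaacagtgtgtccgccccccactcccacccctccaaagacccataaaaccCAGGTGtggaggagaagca
The Twist1 window held TATAA starting 126 and 47 bases before the start and no CAGGTG. The Snai1 window held the E-box as CACCTG at 126 bases before the start. The Epcam window held it as CACCTG at 187 bases and as CAGGTG at 19 bases before the start. For Vim only 30 bases are shown, since a longer Vim transcript is annotated across the window. They lie at chr2:13574267-13574296 on the forward strand, around a TATAA that begins 32 bases before the start. Matches were marked in these 30 bases only, and the rest of the Vim window is not described.
Vim: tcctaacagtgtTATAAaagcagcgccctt
These matches describe the letters in these windows only.

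Vim (ENSMUSG00000026728) (chromosome 2, 13573927 to 13582826, forward strand) is annotated in GENCODE M21 (GRCm38) with up to 9 exons in a transcript. It was at 652.31 TPM in control 1, 628.79 TPM in control 2, 92.93 TPM in the library labelled CD95ko 1 and 211.11 TPM in the library labelled CD95ko 2. The controls were nearly equal, both libraries labelled CD95ko were far lower, and the groups did not overlap. The library labelled CD95ko 1 held 14.51% of the control mean and the library labelled CD95ko 2 held 32.96%. On the scale of log2(TPM + 1), control 2 lay at -0.05 relative to control 1, while the library labelled CD95ko 2 lay 1.18 above the library labelled CD95ko 1. The difference to the controls was larger than either: it ranged from -2.80 to -1.57 over the 4 pairs of a CD95ko with a control library. In bulk RNA, fewer vimentin-expressing cells and less vimentin RNA per cell cannot be told apart.

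Across the 11167 genes tested, the log2 fold change of Vim was -2.18 ± 0.39 SE (limma unadjusted p = 0.000387, adjusted p = 0.0847). It had the 51st smallest p and the 117th lowest log2 fold change, so Vim did not pass the adjusted threshold of 0.05, which 0.0537% of the tested genes passed (6 genes). That number was 0 without control 1 and without control 2, 1034 without the library labelled CD95ko 1 and 194 without the library labelled CD95ko 2. Vim was lower by more than 1 on the log2 scale in all 4 pairs, as were 1.96% of all genes tested. Robust moderation of the variances put Vim past the threshold (limma adjusted p = 0.0465), as did leaving out the library labelled CD95ko 1 (limma adjusted p = 0.0031, log2 fold change -1.60) or the library labelled CD95ko 2 (limma adjusted p = 3.19e-05, log2 fold change -2.77). In those fits the lone CD95ko library is assumed to vary as little as the controls did. Over all alternatives the limma adjusted p of Vim ranged from 3.19e-05 to 0.875, the highest without control 2.

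**Figure D1:**
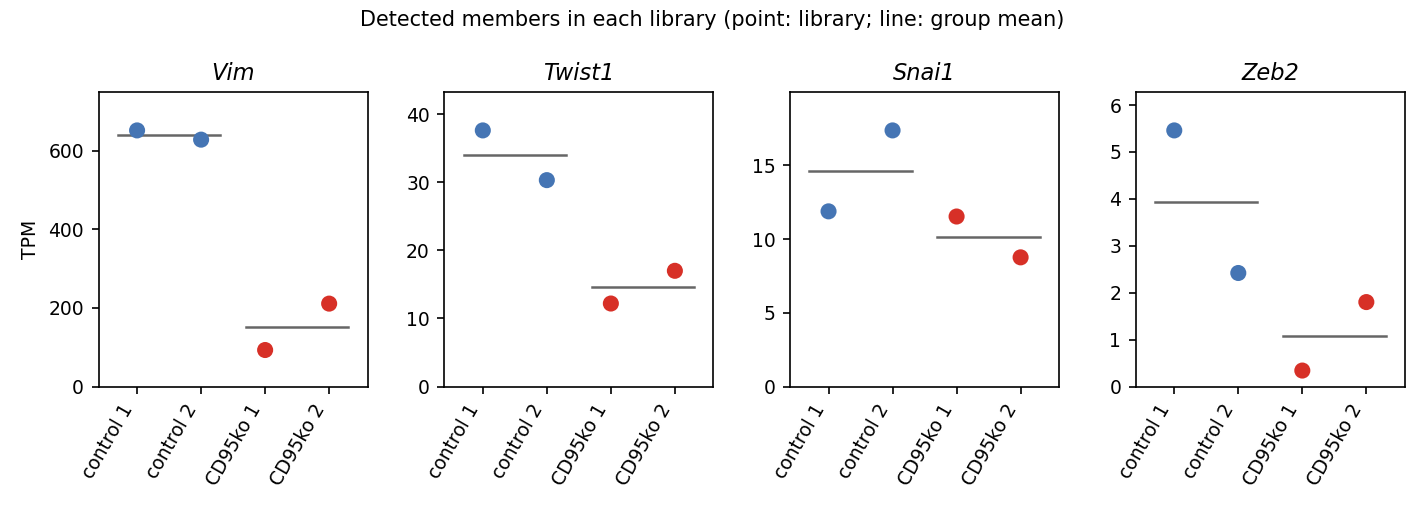
TPM (vertical axis, from 0, with a scale of its own in each panel) of the 4 detected members in the 4 libraries, with a point per library and a line at each group's mean. Vim shows 2 close controls near 640.5 TPM and 2 lower CD95ko libraries. In the Snai1 panel control 1 (11.88 TPM) and CD95ko 1 (11.53 TPM) are nearly level.

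Vim also held different ranks within the libraries. Among the 24411 listed genes it ranked 212th and 220th from the top in the controls, 1707th in the library labelled CD95ko 1 and 689th in the library labelled CD95ko 2. Of the tested genes, 98.1% and 98.0% lay below Vim in the controls, against 84.7% and 93.8% in the libraries labelled CD95ko. Vim was thus above most tested genes in each library, though less far above them in the libraries labelled CD95ko.

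TWIST1 is a basic helix-loop-helix factor that acts in mesoderm and neural crest and is known as a driver of metastasis in mammary tumour models. Twist1 (ENSMUSG00000035799; chromosome 12, 33957671 to 33959829, forward strand, up to 2 exons) was at 37.65 and 30.34 TPM in controls 1 and 2. It was at 12.2 TPM in the library labelled CD95ko 1 and at 17.01 TPM in the library labelled CD95ko 2. The highest CD95ko value was thus well under the lowest control value, and the group means were 34.0 ± 5.17 and 14.6 ± 3.4 TPM (SD, n = 2 each), a 2.33-fold lower mean. The log2 fold change was -1.17 ± 0.43 SE (limma unadjusted p = 0.0247, adjusted p = 0.267), so the gene did not pass over all genes. Its paralog Twist2 was listed at 0 in all libraries, so the only TWIST transcript detected here was that of Twist1.

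SNAI1 (SNAIL) is a zinc-finger repressor of Cdh1 with a very unstable protein. Snai1 (ENSMUSG00000042821; chromosome 2, 167538195 to 167542814, forward strand, up to 3 exons) was at 11.88 and 17.37 TPM in controls 1 and 2, and at 11.53 and 8.76 TPM in the libraries labelled CD95ko 1 and 2. Although the groups did not overlap, control 1 and CD95ko 1 were almost level, and the log2 fold change of -0.48 ± 0.50 SE (limma adjusted p = 0.691) was smaller than its error. It was -0.73 without control 1, -0.22 without control 2 and -0.30 without the library labelled CD95ko 2. Snai2, which encodes SLUG, a zinc-finger factor of basal mammary cells, was listed at 0 in all libraries. The third family gene, Snai3, overlapped between the groups, at 7.9 and 3.47 TPM in the controls, against 7.32 and 2.19 TPM in the libraries labelled CD95ko.

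ZEB1 and ZEB2 are zinc-finger and homeodomain repressors that form a feedback loop with the miR-200 family. Zeb2 (ENSMUSG00000026872; chromosome 2, 44983632 to 45117395, reverse strand, up to 11 exons) was the lowest detected member, at 5.46 and 2.42 TPM in controls 1 and 2, 0.34 TPM in the library labelled CD95ko 1 and 1.8 TPM in the library labelled CD95ko 2. The 2 groups were only narrowly apart, since control 2 lay just above CD95ko 2, and each group's own libraries differed by more. Its log2 fold change was -1.28 ± 0.72 SE (limma adjusted p = 0.434), and a pseudocount of 0.1 in place of 1 moved it to -2.03 (limma adjusted p = 0.469; 0.297 to 0.875 over all alternatives). It was -0.75 without the library labelled CD95ko 1 and -0.82 without control 1. Exons of the antisense gene Zeb2os overlap those of Zeb2, and Zeb2os was at 1.06 and 2.17 TPM in the controls and at 0 and 2.94 TPM in the libraries labelled CD95ko 1 and 2. The strand setting of the counting is not given in the sources used here, so reads of these overlapping exons cannot be assigned with certainty. Zeb1 was listed at 0 in all 4 libraries.

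Cdh2, which encodes N-cadherin, the cadherin that replaces E-cadherin in a full EMT, was listed at 0 in all 4 libraries, as was Prrx1, a homeobox factor of mesenchyme. A listing at 0 is common in these files: 11437 of the 24411 genes (46.9%) were at 0 in every library. Of 70 proteasome, chaperonin, RNA polymerase II and initiation factor 3 genes, 2 were at 0, and these were Psma8 and Psmb11, known as testis and thymus forms of proteasome subunits. Because depth is unknown, a listing at 0 is given here without a detection limit.

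In each library the order of levels was Vim, Twist1, Snai1, Zeb2. In the library labelled CD95ko 1, the neighbours Twist1 and Snai1 were nearly level, at 12.2 and 11.53 TPM, which differ by less than the SD of either gene over the libraries labelled CD95ko. All 4 tested members lay below both controls in both libraries labelled CD95ko, while 18.3% of all genes tested did so. Of the 4, 2 (Vim and Twist1) had an unadjusted limma p under 0.05 and were lower, against 5.68% of all genes tested. Their median log2 fold change was -1.23, against 0.13 for all genes. The 4 members share their libraries and are not independent of each other. All 4 fold changes stayed below 0 under quantile normalization and median-ratio scaling. The other alternatives, including each left-out library, could not change the sign, because the groups did not overlap.

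Vimentin was next set against epithelial transcripts within each library, which is free of the scaling between libraries. These ratios were chosen after the values were seen. Per 100 TPM of the simple keratins Krt7, Krt8, Krt18 and Krt19 together, Vim made up 15.5 and 14.8 TPM in the controls, 1.26 TPM in the library labelled CD95ko 1 and 1.82 TPM in the library labelled CD95ko 2. The ratio of Vim to Epcam, an epithelial adhesion molecule, was 3.65 and 3.79 in the controls, against 0.175 and 0.374 in the libraries labelled CD95ko. For Vim to Cdh1 it was 4.1 and 4.08 against 0.453 and 0.829. Vim thus exceeded Cdh1 and Epcam in both controls and was under both genes in both libraries labelled CD95ko. With 2 libraries against 2, the smallest two-sided p of an exact permutation test is 0.333, and no other test was run on these ratios, which were picked from their values.

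**Figure D2:**
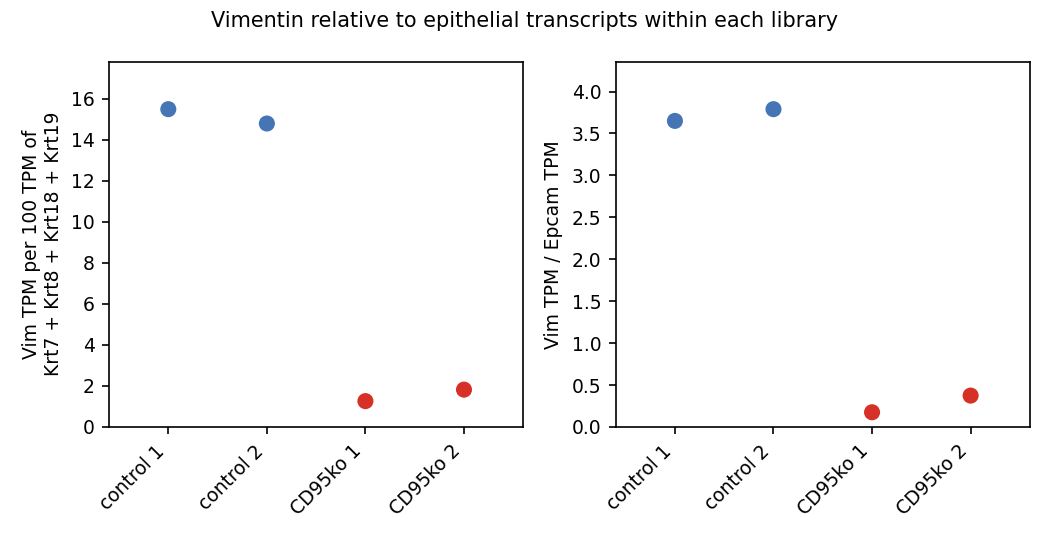
Vim TPM per 100 TPM of 4 simple keratins (left) and the ratio of Vim to Epcam TPM (right) in each library, on linear axes from 0, with a point per library. Both controls lie at 14.8 to 15.5 and at 3.65 to 3.79, far above both CD95ko libraries.

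Epithelial genes reported as repressed by SNAIL, ZEB or TWIST were mostly higher where Vim was lower. All 36 on the list were tested, 32 had a log2 fold change above 0 (28 to 32 over the alternatives), and their median was 0.68 against 0.13 for all genes. Most genes tested thus also had a log2 fold change above 0. Under median-ratio scaling, where the median of all genes was -0.02, 28 of the 36 lay above 0. Of the 36, 21 lay above both controls in both libraries labelled CD95ko, against 29.2% of all genes tested. Below both controls lay 2, against 18.3%. An unadjusted limma p under 0.05 was reached by 11 higher genes, against 9.25% of all genes tested. It was reached by 1 lower gene, Cldn3, against 5.68%, while 0 passed the adjusted threshold. With robust eBayes 2 of the 36 passed it, against 52 of all 11167 genes tested.

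Cdh1, the classical target of SNAI1, was at 159.25 and 154.18 TPM in the controls and at 205.08 and 254.61 TPM in the libraries labelled CD95ko (log2 fold change 0.54 ± 0.30 SE, limma adjusted p = 0.428). It was highly expressed in all 4 libraries, and the difference was 1.47-fold. Krt19, a keratin of simple epithelia, was at 188.6 and 208.89 TPM against 751.14 and 858.51 TPM (4.05-fold, limma adjusted p = 0.0594). Epcam was at 178.52 and 165.77 TPM against 531.5 and 564.69 TPM (3.18-fold, limma adjusted p = 0.0676). These 2 genes separated the groups by more than the spread within either group. Rab25, a small GTPase of epithelial vesicle recycling, was at 86.22 and 12.34 TPM in the controls, which differed strongly from each other, and at 320.79 and 290.41 TPM in the libraries labelled CD95ko. Krt8 was at 536.63 and 570.47 TPM against 1047.41 and 1722.31 TPM (limma adjusted p = 0.147).

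Promoter entries were found for 22 of the 36 epithelial genes, and Cdh1 and Krt19 were not among these 22. Of the 22, 13 (59.1%) held the E-box CAGGTG on either strand in the 200 bases before a start. Of all 27025 genes with an entry, 15.8% did. The list holds genes reported as repressed by factors known to bind such an E-box. A high share may thus be built into the list and is no result of these libraries. The 13 genes with the E-box had a median log2 fold change of 0.99, with 9 above both controls. For the 9 genes without it the median was 0.78, with 5 above both controls. Of all genes tested, 29.2% lay above both controls. The ranges overlapped, from -0.48 to 3.17 with the E-box and from -1.09 to 1.47 without it, and Rab25, Tjp3 and Epcam, all with the E-box, lay above all 9 genes without it. The difference between these 2 sets was not tested.

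The other mesenchymal genes did not follow Vim as a group. Of 30 on the list, 15 were tested and 9 were at 0 in all libraries, among them Cdh11, Pdgfrb, Thy1 and Mmp2. Among the 15, 4 lay above both controls (29.2% of all genes tested did) and 3 below (18.3% did), which is near those shares, and the median log2 fold change was 0.03, which became -0.14 under median-ratio scaling of the libraries. It was 0.34 without control 1, 0.11 without control 2, 0.46 without the library labelled CD95ko 1 and -0.54 without the library labelled CD95ko 2. Axl, a receptor tyrosine kinase linked to EMT, was at 279.5 and 230.13 TPM in the controls and lower, at 134.82 and 135.26 TPM, in the libraries labelled CD95ko (limma adjusted p = 0.227). Mmp14, a membrane-bound metalloproteinase, lay in the other direction, at 130.12 and 53.01 TPM against 193.7 and 344.57 TPM (limma adjusted p = 0.185). Tgfbi, a secreted matrix protein gene, was at 0.9 and 0 TPM against 7.74 and 2.49 TPM. Col6a1, a collagen VI chain gene, was at 7.13 and 1.63 TPM against 0.79 and 0 TPM. The last 2 genes are near the bottom of the scale in at least 1 group.

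**Figure D3:**
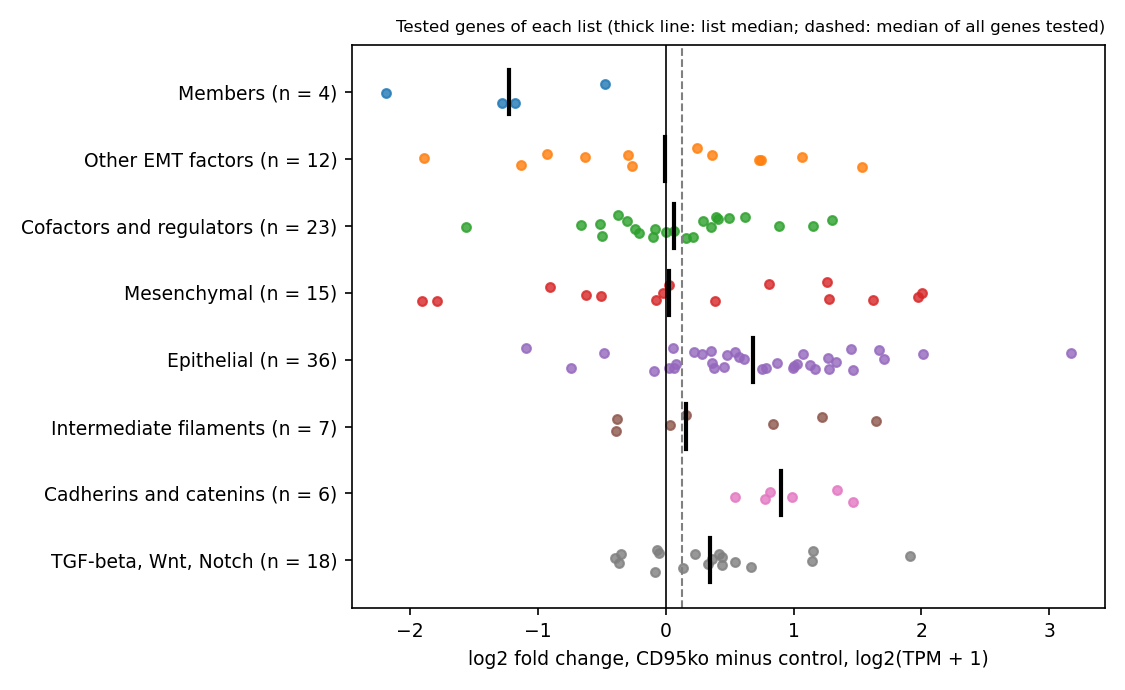
Log2 fold change (CD95ko minus control, on log2(TPM + 1), horizontal axis) of each tested gene in each list, with a point per gene, a thick line at the list's median and a dashed line at the median of all genes tested (0.13). Vertical scatter within a list has no meaning. The 4 detected members lie left of 0, and 32 of 36 epithelial genes lie right of it, as does the median of all genes tested. The mesenchymal genes lie on both sides.

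Other transcription factors linked to EMT were mixed. Of 16, 12 were tested, Gsc and Tbx3 were at 0 in all libraries, 3 lay below both controls (18.3% of all genes tested did) and 4 above (29.2% did), and the median log2 fold change was -0.01 (-0.39 to 0.42 over the alternatives). Ets1, an ETS factor, was at 81.1 and 68.08 TPM in the controls, 8.74 TPM in the library labelled CD95ko 1 and 41.28 TPM in the library labelled CD95ko 2 (limma adjusted p = 0.232). Like Vim, it was lowest in the library labelled CD95ko 1. Sox9, an SRY-box factor of mammary progenitors, was at 73.7 and 44.63 TPM against 27.11 and 24.41 TPM (limma adjusted p = 0.256). Hmga2, an architectural chromatin protein gene, was at 65.81 and 87.98 TPM against 30.27 and 51.58 TPM (limma adjusted p = 0.323). Foxc1, a forkhead factor, was higher, at 12.14 and 10.39 TPM against 18.42 and 32.77 TPM (limma adjusted p = 0.348).

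Cofactors and stability regulators of the SNAIL, ZEB and TWIST proteins differed little. Of 25, 23 were tested, 7 lay above both controls (29.2% of all genes tested did) and 3 below (18.3% did). The median log2 fold change was 0.07, and it was -0.10 under median-ratio scaling, 0.30 without control 1, -0.16 without control 2 and 0.23 without the library labelled CD95ko 1. The corepressor genes Hdac1 (log2 fold change 0.01), Hdac2 (0.29), Ctbp1 (0.40) and Ezh2 (0.16) differed by less than their SE or by little more. Among other corepressor genes, Ctbp2 (-0.51 ± 0.36 SE) lay below both controls and Kdm1a (0.41 ± 0.33 SE) above both. Fbxl5, an F-box protein gene whose product is reported to act on SNAIL, was at 36.82 and 34.4 TPM against 61.53 and 105.16 TPM (limma adjusted p = 0.237). Rcor1, the CoREST scaffold that carries the demethylase KDM1A, was at 15.47 and 5.82 TPM against 25.74 and 24.46 TPM (limma adjusted p = 0.311), and Sin3a, a histone deacetylase scaffold, was at 20.17 and 9.3 TPM against 27.42 and 25.2 TPM. For both scaffolds control 2 was lower than control 1 by about as much as the groups differed. Loxl2, a lysyl oxidase family gene reported to stabilise SNAIL, was at 4.75 and 3.22 TPM against 1.79 and 0 TPM.

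The other type III filament genes were nearly silent beside Vim: Des and Gfap were at 0 in all libraries, and Prph was at 0.7 TPM in control 1 and at 0 in the rest. Of 16 intermediate filament and linker genes outside the keratins, 7 were tested, and of these 7, 3 lay above both controls (29.2% of all genes tested did) and 0 below (18.3% did). Nes, which encodes nestin, a filament protein that assembles with vimentin, was at 56.13 and 39.44 TPM in the controls, against 30.97 and 41.06 TPM in the libraries labelled CD95ko, so its groups overlapped (log2 fold change -0.39 ± 0.39 SE). The A-type lamin gene Lmna overlapped as well. Plec, which encodes the linker plectin, was at 14.49 and 9.18 TPM against 22.55 and 64.3 TPM (limma adjusted p = 0.239). Eppk1, the plakin epiplakin, was at 4.3 and 2.05 TPM against 7.54 and 9.3 TPM, and Lmnb1, a B-type lamin, at 44.76 and 30.1 TPM against 66.49 and 66.59 TPM. None of the 3 passed the adjusted threshold.

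Cdh2 was 1 of many cadherin genes at 0. Of 19 other cadherin and catenin genes, 11 were at 0 in all libraries. The 6 tested genes, Cdh1 and 5 catenin or catenin-like genes, all lay above both controls, as did 29.2% of all genes tested. The other 2, Cdh3 and Cdh17, did not pass the filter and lay below both controls. Cdh3 was at 0.88 and 1.61 TPM against 0 and 0.81 TPM, and Cdh17 at 0.69 and 1.13 TPM against 0 and 0 TPM. The median log2 fold change of the 6 tested genes was 0.90, against 0.13 for all genes, and 0.70 to 1.24 over the alternatives. Cdh1 and Jup are also on the list of epithelial genes. Ctnna1, which encodes alpha-catenin, the link from cadherin to actin, was at 128.36 and 96.21 TPM against 256.05 and 313.19 TPM (limma adjusted p = 0.144). Jup, which encodes plakoglobin of adherens junctions and desmosomes, was at 74.89 and 49.54 TPM against 131.92 and 220.15 TPM (limma adjusted p = 0.159). Ctnnb1, which encodes beta-catenin, was at 220.97 and 187.1 TPM against 315.84 and 519.07 TPM (limma adjusted p = 0.234), and Ctnnd1, which encodes p120-catenin, at 45.37 and 44.26 TPM against 63.98 and 98.89 TPM. No gene of the list passed the adjusted threshold.

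The list for pathways known to induce the EMT factors held 24 genes, of which 18 were tested. It covers the TGF-beta, Wnt and Notch pathways and 4 others (Hif1a, Hgf, Met and Egfr). Inhibitors such as Smad7 and Skil are on it, so not all its genes are inducers. Among the 18, 4 lay above both controls, against 29.2% of all genes tested, and 1 below, against 18.3%. Their median log2 fold change was 0.35, against 0.13 for all genes. That median was 0.10 without control 2, 0.12 without the library labelled CD95ko 2 and 0.55 without control 1. Tgfb3, a TGF-beta ligand gene, was at 22.15 and 8.87 TPM in the controls, against 49.31 and 63.21 TPM in the libraries labelled CD95ko (limma adjusted p = 0.159). Tgfbr1, the type I receptor gene, was at 6.8 and 7.69 TPM against 14.73 and 19.96 TPM, and the receptor gene Notch1 at 3.65 and 2.54 TPM against 6.12 and 10.44 TPM. Skil, which encodes the SMAD corepressor SnoN, was the gene below both controls, at 27.43 and 22.98 TPM against 22.36 and 17.05 TPM. Smad7, a feedback inhibitor and TGF-beta target, had a log2 fold change of -0.06.

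**Figure D4:**
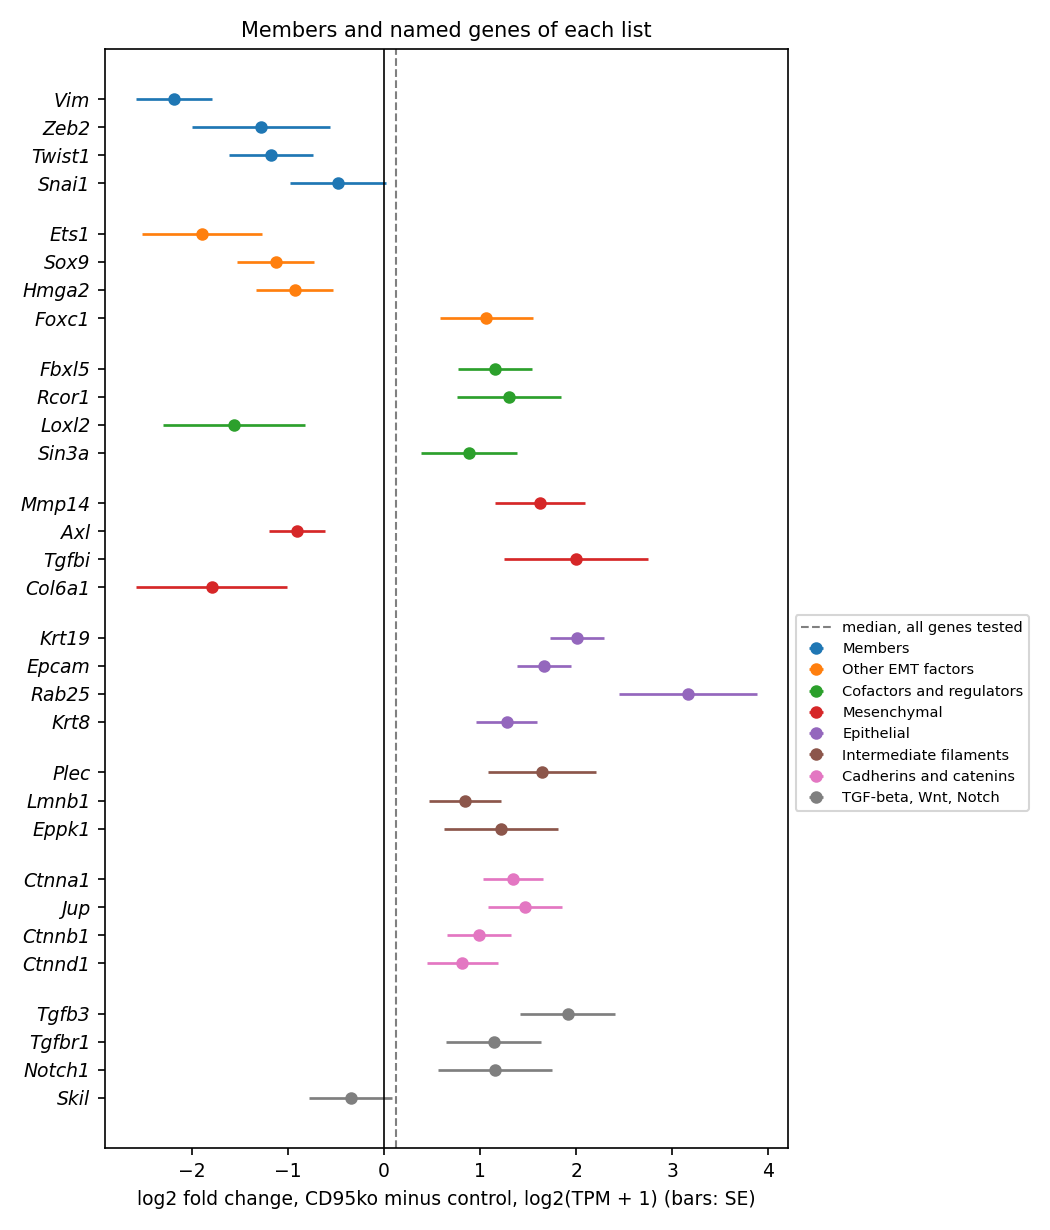
Log2 fold change (horizontal axis, CD95ko minus control on log2(TPM + 1), bars are 1 SE) of the 4 detected members and the named genes of each list, coloured by list. The dashed line is the median of all genes tested (0.13). No gene shown passed an adjusted p of 0.05, and Vim lies lowest at -2.18.

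The genes whose profile over the 4 libraries was most like that of Vim were found among 9332 others with a mean of at least 5 TPM, by the root mean square difference of centred log2(TPM + 1). Slc25a25 was nearest, at a difference of 0.11, with 84.36 and 67.91 TPM in the controls, against 9.06 and 23.92 TPM in the libraries labelled CD95ko. Zfp202 (0.12), 6030419C18Rik (0.23), Birc3 (0.27), Rgs16 (0.28) and Bcl3 (0.28) followed. All 6 were lowest in the library labelled CD95ko 1, as Vim was, which follows from how they were picked. Nearest to Twist1 were Gm5801 (0.05) and Traf2 (0.05), nearest to Snai1 were Minos1 (0.04) and 0610012G03Rik (0.04), and nearest to Zeb2 were Cdk3-ps (0.06) and Fyn (0.16). With 4 libraries, many profiles of this shape can be found, and the likeness is a description.

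Markers of other cells were examined because fibroblasts, macrophages and endothelial cells also express Vim. Of 9 fibroblast markers, 6 (Col3a1, Pdgfrb, Thy1, Dcn, Lum and Fap) were at 0 in all libraries, and the 9 summed to 0.97 to 3.02 TPM in the controls and 2.85 to 4.52 TPM in the libraries labelled CD95ko. Of 5 endothelial markers, 4 (Pecam1, Cdh5, Kdr and Vwf) were at 0 in all libraries, and the 5 summed to at most 0.28 TPM. Of 6 macrophage and leukocyte markers, 4 (Ptprc, Adgre1, Itgam and Cd3e) were at 0 in all libraries. The 6 summed to 45.8 and 42.1 TPM in the controls, against 40.1 and 151.3 TPM in the libraries labelled CD95ko. These sums consisted of Cd68 and Csf1r. Cd68 overlapped between the groups, at 44.57 and 42.05 TPM against 17.83 and 146.27 TPM. Csf1r was at 1.22 and 0 TPM in the controls, against 22.22 and 5.07 TPM in the libraries labelled CD95ko. It thus lay above both controls (limma unadjusted p = 0.00489, adjusted p = 0.164), as did 29.2% of all genes tested. The sum over the 6 epithelial markers, which are also on the list of epithelial genes, lay in the direction opposite to Vim. It was 4550 and 4576 TPM in the controls and 8134 and 12440 TPM in the libraries labelled CD95ko. Its part in the level of Vim was not tested.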

How the data were processed

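The deposited tables give 1 TPM value per gene symbol, per the file headers. STAR 2.6.0, RSEM 1.3.0 and the build mm10 are named in the submitters' processing notes; the annotation, the strand setting and the depth are not given in the sources used here. TPM scales every library to the same sum, so a higher share of abundant transcripts lowers the others. Titles gave each sample its group. Genes with at least 1 TPM in at least 2 libraries (11167) entered, as log2(TPM + 1), a comparison of the groups with limma 3.58.1 in R 4.3.3 (two-sided, eBayes with its trend option, Benjamini-Hochberg adjustment over all genes tested, threshold 0.05). Fold changes on this scale understate those of low genes. The script was tested on simulated data. Nothing says how the samples of a group relate beyond the lines and clones named, so p-values measure only the spread between these libraries.

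The members and lists were chosen with earlier results of these data known. Named genes were all members, Fas, up to 4 genes per list with the smallest p among those whose groups did not overlap, every list gene past the adjusted threshold (there was none), and the genes with the most similar profile. Genes outside this rule were chosen after their values were seen. These were Snai3, Cdh1, Cldn3, Nes, Lmna, Prph, Tjp3, Smad7, Cd68, Cdh3, Cdh17 and the keratins of the ratio. The corepressor genes Hdac1, Hdac2, Ctbp1, Ctbp2, Ezh2 and Kdm1a were chosen in the same way. Patj was found under its older symbol Inadl. A leukocyte marker of the original list is not reported here. Gene positions are from GENCODE M21 (GRCm38, the assembly of mm10), and promoter sequences from RefSeq (GRCm38.p6). Alternatives were eBayes without trend, a pseudocount of 0.1, robust eBayes, no filter, quantile normalization, median-ratio scaling, the replicate block and leaving out each library in turn.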

Additional observations from a re-analysis of the deposited data

How the results depend on the processing

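The number of genes past the adjusted threshold, 6 as reported, was 0 under median-ratio scaling, under quantile normalization, with a pseudocount of 0.1, without trend in eBayes and without the filter (1847, 1862, 1553, 1531 and 1636 genes at an unadjusted limma p under 0.05, against 1667), and 52 under robust eBayes; the cause was not tested. Leaving out each library in turn gave 0 (without control 1 or control 2), 194 (without CD95ko 2) and 1034 (without CD95ko 1). The log2 fold change of Vim was -2.18 under robust eBayes, where it passed the threshold, and -2.77 to -1.60 when a library was left out. The sign for Vim could have changed only under quantile normalization (-2.18) and median-ratio scaling (-2.35). Of Twist1, Zeb2 and Snai1, 0 passed the adjusted threshold under any alternative that used all libraries. All 3 stayed below 0 under both rescalings, the only alternatives that could have changed the sign. Over all genes, scaling shifted the median log2 fold change from 0.13 to 0.002 (quantile) and -0.02 (median-ratio), and the share of higher genes among those at an unadjusted p under 0.05 from 62.0% to 51.9% and 48.5%.

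The replicate numbers in the titles count different lines and clones and do not pair the libraries: across genes, the correlation between the deviations of libraries that share a number was -0.08. With the replicate block, 2 genes passed the adjusted threshold, and Vim kept its log2 fold change of -2.18 (limma adjusted p = 0.143). Depth is unknown, which limits what can be said of Zeb2 and of the 5 members listed at 0.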
